A study of Mus musculus with 12 samples.

Results

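Mitochondrial ribosomal protein genes are the nuclear genes for the protein subunits of the ribosome inside mitochondria, and their names begin with Mrpl (large subunit) or Mrps (small subunit). Genes were taken by name, but the set was chosen with earlier results of these data known. A gene was included where a probe set of the array was annotated with a single symbol made of Mrpl or Mrps, a number and at most 1 further letter. Where a symbol had several such probe sets, the brightest on average was kept. This gave 77 genes (85 probe sets) out of 19938 genes measured: 50 encode proteins of the large subunit and 26 proteins of the small subunit. Mrps30 and Mrps18a carry small-subunit names but are part of the large subunit, and Mrps36 is now known as a subunit of the 2-oxoglutarate dehydrogenase complex rather than of the ribosome. Mrps36 is kept in all counts over the 77 genes and left out of counts by subunit.

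The cells were macrophages grown for 17 days from bone marrow of C3H/HeN mice, with L-cell conditioned medium as the source of M-CSF and with IL-3, IL-6 and SCF during expansion. They were left unstimulated (0 min) or given 100 ng/ml lipopolysaccharide (LPS) from Escherichia coli for 45 min or 270 min. Every culture, unstimulated ones included, received 200 µM 4-thiouridine for its last 35 min, which marks new RNA for coupling to biotin and capture on streptavidin. The captured fraction (nascent RNA) and total RNA were each profiled at the 3 times, in 2 independent experiments, which gives 6 groups of 2 arrays. RNA input was 100 ng for each nascent array and 200 ng for each total array. The labels used here state neither the age of the mice nor how many gave marrow.

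Mammalian mitochondrial DNA encodes ribosomal RNAs, transfer RNAs and a few subunits of the respiratory chain, but no protein of the mammalian mitochondrial ribosome. All those proteins are made in the cytosol and imported, and they assemble with the mitochondrial ribosomal RNAs into a ribosome that makes core subunits of oxidative phosphorylation. Many descend from the bacterial ribosome (31 of the large-subunit and 17 of the small-subunit genes here), while others are found only in mitochondria (19 and 9). In macrophages, respiration is one of the functions that changes after LPS.

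The promoters of 7 genes on which the results turn are shown from 150 bases before to 30 after the annotated start, from RefSeq (build GRCm38.p6), 5′ to 3′ on the strand of the gene. Capitals mark exact matches, on either strand, to 3 motifs often named for genes of mitochondrial proteins: GCGCANGCGC (NRF1), CCGGAAG (GABP and other ETS factors) and ATGGCGG (YY1). The first 4 were called lower in nascent RNA at 45 min in every alternative analysis in which they were tested. The last 3 were called higher, of which only Mrpl52 was so in every alternative.
Mrps17 (chr5:129715347-129715526, + strand): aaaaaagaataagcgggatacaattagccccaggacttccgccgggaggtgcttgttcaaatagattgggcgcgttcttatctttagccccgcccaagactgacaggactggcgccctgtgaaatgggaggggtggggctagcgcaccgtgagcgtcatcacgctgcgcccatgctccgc
Mrpl40 (chr16:18876608-18876787, - strand): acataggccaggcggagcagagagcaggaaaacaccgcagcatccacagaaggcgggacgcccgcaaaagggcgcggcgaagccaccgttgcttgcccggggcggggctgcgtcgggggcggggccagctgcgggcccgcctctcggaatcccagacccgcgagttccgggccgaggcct
Mrpl50 (chr4:49521054-49521233, - strand): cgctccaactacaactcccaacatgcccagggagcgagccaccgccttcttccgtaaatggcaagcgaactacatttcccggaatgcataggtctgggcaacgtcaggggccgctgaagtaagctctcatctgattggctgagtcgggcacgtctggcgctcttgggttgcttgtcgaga
Mrpl22 (chr11:58171514-58171693, + strand): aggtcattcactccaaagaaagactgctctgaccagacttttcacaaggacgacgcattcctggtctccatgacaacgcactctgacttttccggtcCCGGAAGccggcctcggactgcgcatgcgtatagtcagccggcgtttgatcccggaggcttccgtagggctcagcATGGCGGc
Mrpl52 (chr14:54426759-54426938, + strand): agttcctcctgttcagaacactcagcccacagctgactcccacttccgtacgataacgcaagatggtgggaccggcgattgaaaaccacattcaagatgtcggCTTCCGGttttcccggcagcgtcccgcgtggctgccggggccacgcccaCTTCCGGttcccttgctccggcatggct
Mrpl39 (chr16:84735215-84735394, - strand): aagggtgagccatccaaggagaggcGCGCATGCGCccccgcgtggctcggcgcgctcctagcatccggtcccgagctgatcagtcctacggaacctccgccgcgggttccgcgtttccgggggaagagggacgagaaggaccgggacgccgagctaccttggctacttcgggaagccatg
Mrpl16 (chr19:11770265-11770444, + strand): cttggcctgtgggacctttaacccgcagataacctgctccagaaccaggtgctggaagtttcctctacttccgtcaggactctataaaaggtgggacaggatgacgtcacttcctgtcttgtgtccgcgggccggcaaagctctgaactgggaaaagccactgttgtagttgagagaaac
Matches stood in the windows of Mrpl22 (ETS and YY1), Mrpl52 (ETS at 2 places) and Mrpl39 (NRF1). The windows of Mrps17, Mrpl40, Mrpl50 and Mrpl16 held none of these letters. Genes that fell and genes that rose therefore both include promoters with and without a match.

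Over the whole set, 68 of the 77 genes had a promoter in the RefSeq table, with 74 promoters in all (250 bases before to 50 after the start). The ETS motif stood in 33.8% of them, against 8.86% of 32851 promoters of all genes and 17.5% of the 11077 promoters of genes whose mean signal lay above the background level defined below. NRF1 letters stood in 17.6%, against 4.6% and 10.0%, and YY1 letters in 16.2%, against 4.05% and 8.03%. A TATA sequence (TATAAA) stood in 6.76%, an Sp1 box (GGGCGG) in 52.7%, an E-box (CACGTG) in 9.46%, an AP-1 site (TGANTCA) in 4.05% and the NF-kB motif in 6.76%. In all promoters those shares were 13.6%, 35.7%, 7.15%, 7.81% and 8.46%, and in promoters of genes above the background level 7.16%, 61.8%, 10.1%, 5.22% and 10.5%. The Sp1 share thus lay above that of all promoters and below that of the brighter genes. Motifs may overlap one another, and a match is a description of letters, not a binding site.

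Levels are log2 of the deposited intensity. The 95th percentile of 1027 olfactory receptor genes on the same array served as its background level (mean 6.43 over the arrays). Of the 77 genes, 60 lay above it on all 12 arrays and 0 lay below it on all 12. The dimmest were Mrpl22, above background on 3 arrays, Mrpl42, on 4, and Mrpl47, on 6. The median over the 77 genes was 7.76 and 8.17 in unstimulated nascent RNA (experiments 1 and 2), 7.25 and 7.22 at 45 min, and 7.73 and 7.58 at 270 min. In total RNA it was 8.23 and 8.21, then 8.14 and 8.23, then 8.10 and 7.95. The 45 min nascent arrays were thus the lowest pair, while the total RNA arrays moved little between 0 and 45 min.

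**Figure D1:**
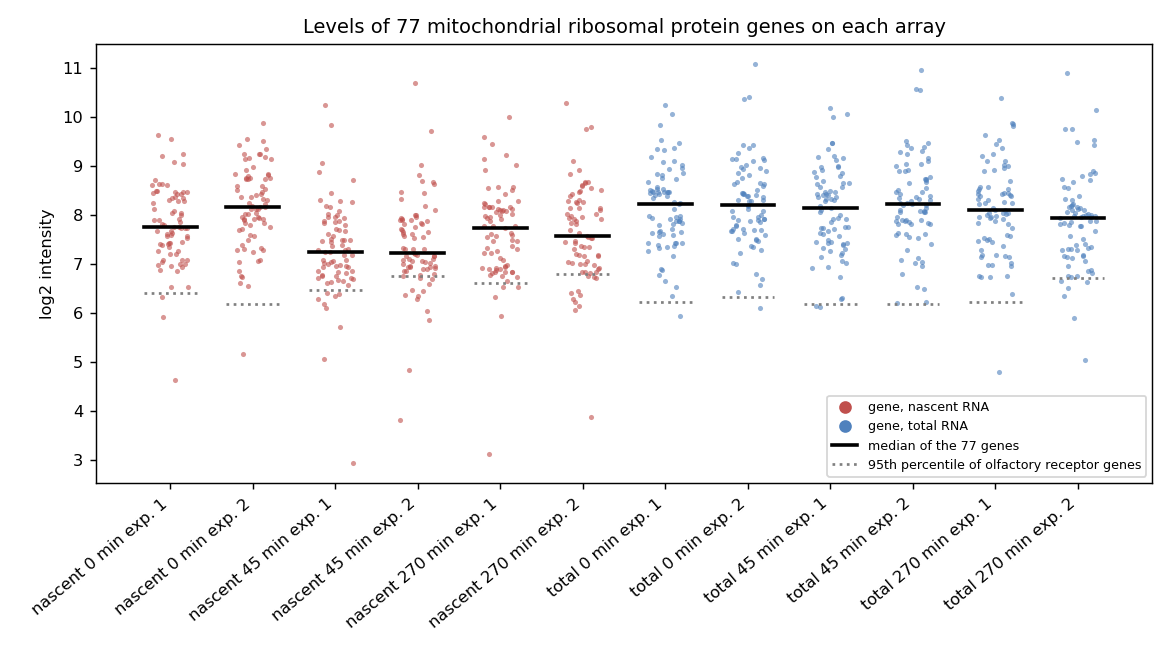
Log2 intensity of each of the 77 genes (dots) on each of the 12 arrays, with the median of the genes (black bar) and the array's background level (dotted, 95th percentile of 1027 olfactory receptor genes); horizontal scatter is only for legibility. The median bars of the 45 min nascent arrays lie at 7.25 and 7.22, under those of every other array.

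Several facts of the whole series bear on these values. Replicate arrays correlated at r = 0.981 to 0.989 across genes. The unstimulated nascent array of experiment 2 read higher than that of experiment 1 for the 77 genes, by a median of 0.375 log2, and the interquartile range over all genes was 2.80 and 3.06 on those 2 arrays against 2.50 to 2.67 on the stimulated nascent arrays. All 8 macrophage markers lay above background on every array. So did 1 of 7 mast cell and basophil markers (Kit), 1 of 6 T, NK and B cell markers (Cd3e) and 1 of 4 stromal and endothelial markers (Col1a1). Of neutrophil and myeloid precursor markers 0 of 7 did, of dendritic cell markers 0 of 5 and of erythroid or megakaryocyte markers 0 of 3. In the same order of lists, 1, 4, 2, 4, 3 and 1 markers were above background on no array. The remaining markers passed it on some arrays. In RNA from a whole culture, fewer cells of a type and less RNA per cell cannot be told apart.

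The comparison of nascent RNA at 45 min with unstimulated cells asks how much new RNA of these genes was made early after LPS. Nascent RNA of 33 of the 77 genes (42.9%) was lower at 45 min and that of 3 was higher, by limma at a Benjamini-Hochberg adjusted p below 0.05 over all 19938 genes. Over all genes, 5.88% were called lower and 3.05% higher. Of the 10935 genes with a mean above the background level, 9.82% were called lower. The median difference was -0.73 log2 over the 77 genes (-0.55 in experiment 1 and -0.87 in experiment 2) and 0.11 over all genes. All genes include more dim ones: on these nascent arrays 49.1% to 57.2% lay above background, against 84.4% to 98.7% of the 77. The median of the brighter genes is not given here. The background level itself was 6.41 and 6.19 on the unstimulated nascent arrays and 6.48 and 6.76 at 45 min. The difference was below 0 for 69 genes, and 17 of the called genes were more than 2-fold lower. For Mrpl13, Mrpl22 and Mrpl42, which are among the 17, the 45 min arrays lay under background, so a 2-fold fall is not shown. The shares of all genes for these 2 counts are not given here. Both 45 min arrays lay below both unstimulated arrays for 60 of the 77 genes (77.9%), against 22% of all genes. In total RNA the same held for 7 genes (9.09%), against 14.4% of all genes.

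Calls spread over both subunits and both origins of the proteins. In the large subunit, 14 of 31 genes with a bacterial counterpart were lower: Mrpl2, Mrpl11, Mrpl13, Mrpl15, Mrpl18, Mrpl19, Mrpl21, Mrpl22, Mrpl23, Mrpl24, Mrpl27, Mrpl36, Mrpl47 and Mrpl55. So were 9 of its 19 genes found only in mitochondria: Mrpl37, Mrpl40, Mrpl42, Mrpl46, Mrpl49, Mrpl50, Mrpl51, Mrpl57 and Mrps30. In the small subunit, 5 of 17 with a bacterial counterpart were lower (Mrps5, Mrps11, Mrps15, Mrps17 and Mrps18b), and 5 of 9 mitochondria-specific ones (Mrps22, Mrps23, Mrps25, Mrps31 and Mrps33). The medians of these 4 groups were -0.75, -0.86, -0.46 and -0.89, and differences between the groups were not tested. In all 33 the arrays of the 2 times did not overlap. The calls were made on the same arrays, so a lack of overlap is no separate support, here or for the called genes below. In 6 of them (Mrpl13, Mrpl22, Mrpl40, Mrpl47, Mrps11 and Mrps25) both 45 min arrays lay under the background level, so that the array gives a bound at most, and for Mrpl42 both groups did. Among the others the fall ran from 1.6-fold (Mrps5) to 2.58-fold (Mrps17).

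Among small-subunit genes, Mrps17, which encodes a counterpart of bacterial S17, showed the largest fall. Its nascent level was 7.89 and 8.40 in unstimulated cells, 6.96 and 6.59 at 45 min, and 7.49 and 7.19 at 270 min. The unstimulated and 45 min arrays did not overlap, and the 45 min mean was 2.58-fold lower (-1.37 ± 0.23 log2, limma SE, n = 2 per group; adjusted p = 0.00259). Its total RNA read 7.88 and 7.78, then 7.61 and 7.89, then 7.92 and 7.51, so those groups overlapped throughout. Mrps15, a counterpart of bacterial S15, fell by 0.94 ± 0.23 in nascent RNA (adjusted p = 0.0191), from 8.63 and 8.76 to 7.69 and 7.82. Its total RNA stayed far above its nascent level, at 10.07 and 10.36 in unstimulated cells and 10.05 and 10.57 at 45 min.

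Mrpl40, Mrpl18 and Mrpl46 encode proteins of the central protuberance, the top of the large subunit next to the small one. The nascent level of Mrpl40 was 7.59 and 7.97 at 0 min and 6.28 and 6.70 at 45 min, and those arrays did not overlap. Its 45 min arrays lay under background, so the fall was at least 2.24-fold against that level (-1.29 ± 0.22; adjusted p = 0.00225). Nascent Mrpl18 fell from 8.45 and 9.18 to 7.5 and 7.58 (-1.28 ± 0.26, adjusted p = 0.00718), and Mrpl46 from 7.89 and 8.46 to 7.09 and 6.92 (-1.17 ± 0.25, adjusted p = 0.0107). In all 3, both 45 min arrays were lower than both unstimulated arrays.

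Other large-subunit proteins sit around the peptide exit tunnel or in the mitochondria-specific shell. Mrpl50, a mitochondria-specific protein, went from 8.46 and 8.76 to 7.28 and 7.54 in nascent RNA, which is 2.3-fold lower and nearly equal in both experiments (-1.18 and -1.23; SE 0.20, adjusted p = 0.00255). Mrpl51 fell from 8.48 and 9.25 to 7.57 and 7.61 (-1.28 ± 0.24, adjusted p = 0.00505), and its second probe set read 8.81 and 8.96, then 7.37 and 7.75. The probe sets of Mrpl51 agreed less in total RNA, where the second read 8.17 and 8.52 at 0 min and 7.35 and 8.12 at 45 min. Mrps30 fell from 8.36 and 8.98 to 7.19 and 7.69 (-1.23 ± 0.31, adjusted p = 0.0245). For each of these genes the groups did not overlap. Mrpl2, whose bacterial counterpart lies close to the peptidyl transferase centre, depended more on the experiment: it fell by 0.63 in experiment 1 and by 1.81 in experiment 2 (adjusted p = 0.0298).

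Mrpl22, a tunnel protein, and Mrpl42, a mitochondria-specific protein, were called but are dim. Nascent Mrpl22 read 5.92 and 6.75 at 0 min and 5.07 and 4.84 at 45 min (-1.38 ± 0.24, adjusted p = 0.00319), and only its unstimulated array of experiment 2 was above background. Nascent Mrpl42 read 4.63 and 5.17, then 2.94 and 3.83 (-1.51 ± 0.35, adjusted p = 0.0154), all under background. The size of these 2 falls cannot be read from the array.

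**Figure D2:**
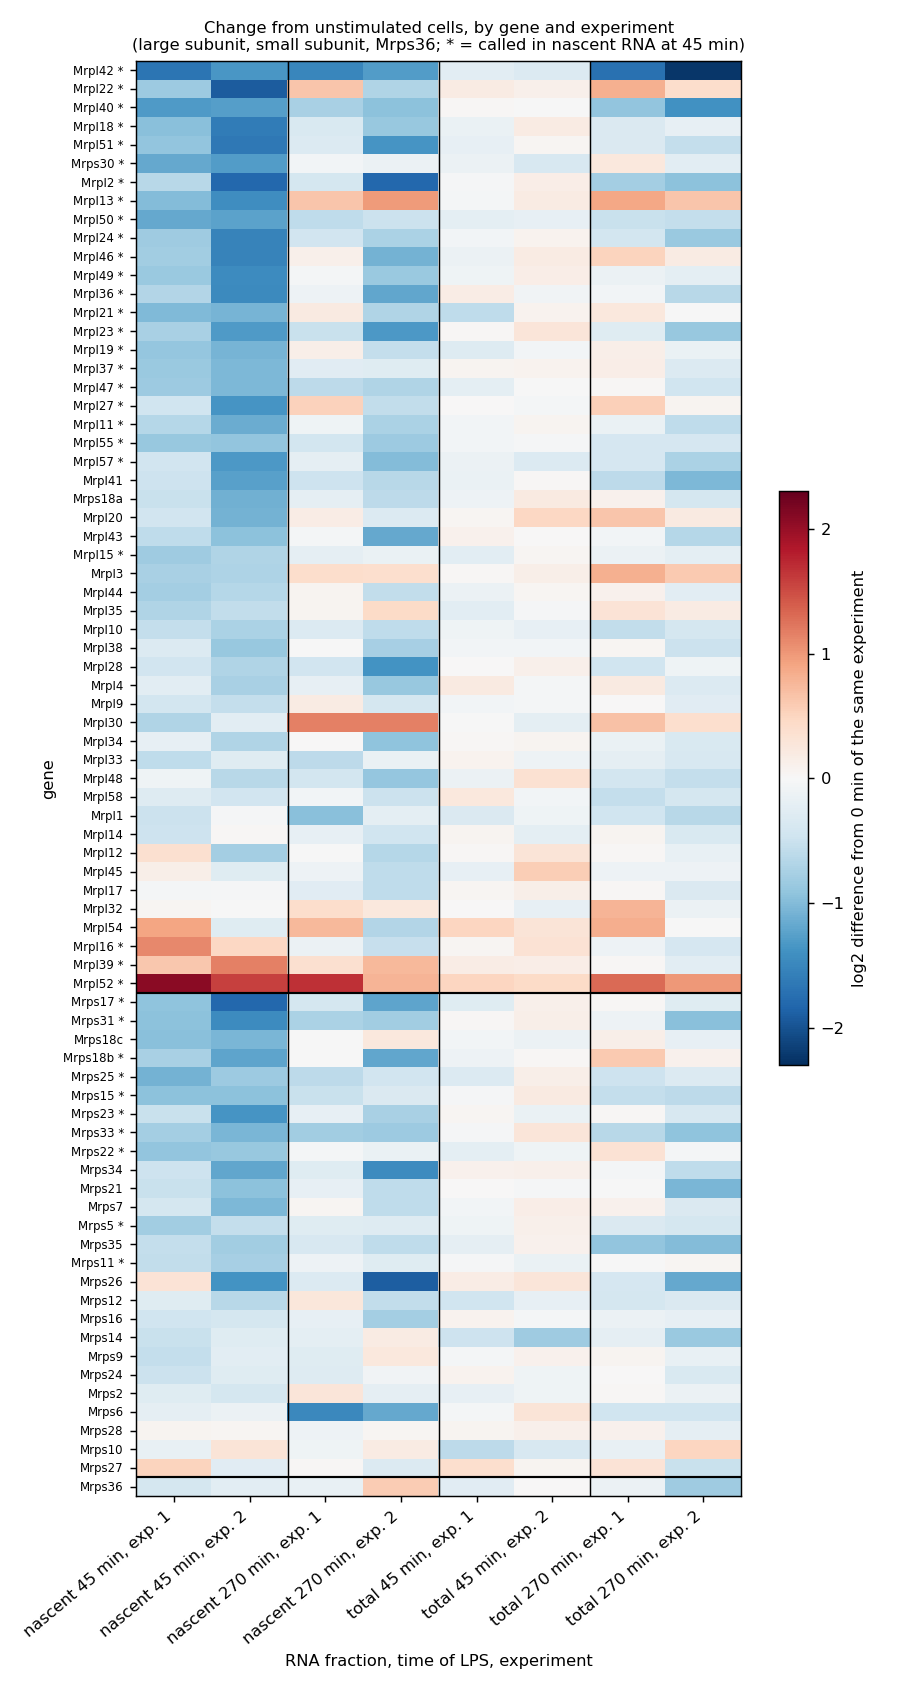
Log2 difference from the unstimulated array of the same experiment (colour) for each of the 77 genes (rows, by subunit and then by the size of the change) in nascent and total RNA at 45 and 270 min of LPS. Both columns of nascent RNA at 45 min are blue for most rows (65 of 77 were below 0 in both experiments), while those of total RNA at 45 min are near white.

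Only 3 of the 77 genes rose in nascent RNA at 45 min, all of the large subunit: Mrpl52, Mrpl39 and Mrpl16. Nascent Mrpl52, a mitochondria-specific protein, went from 7.76 and 8.13 to 9.83 and 9.71, a 3.55-fold rise (1.83 ± 0.23, adjusted p = 0.000238). Nascent Mrpl39, whose protein resembles a threonyl-tRNA synthetase, went from 9.63 and 9.55 to 10.24 and 10.70 (0.88 ± 0.26, adjusted p = 0.0487). Nascent Mrpl16, a counterpart of bacterial L16, went from 7.62 and 8.16 to 8.72 and 8.64 (0.79 ± 0.22, adjusted p = 0.0436). The groups did not overlap in any of these 3 genes. Mrpl52 was called in every alternative. Mrpl39 lost its call after quantile scaling (0.89) and without any 1 of the 6 nascent arrays (0.66 to 1.11). Mrpl16 lost its call without any 1 nascent array except the unstimulated one of experiment 2, and without any 1 total RNA array at 0 or 45 min (0.52 to 0.83). A further 5 genes had differences above 0 that were not called: Mrpl54 (0.32), Mrps27 (0.13), Mrps10 (0.07), Mrps28 (0.06) and Mrpl32 (0.01). Mrps36 differed by -0.33 ± 0.32 (adjusted p = 0.555). The largest difference among the 41 genes not called was that of Mrps18c (-1.01 ± 0.32, adjusted p = 0.0693).

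The count of falls leans on single arrays, and the shares of all genes called are from the main fit. It was 5 without the unstimulated nascent array of experiment 2, 9 without the 45 min nascent array of experiment 1, 8 without that of experiment 2, and 18 after quantile scaling within each RNA fraction. All 33 genes kept a difference below 0 after quantile scaling, where the median over the 77 genes was -0.54. Leaving out 1 array could not change the sign for these 33, since their arrays of the 2 times did not overlap. The median over the 77 genes was -0.53 without the unstimulated nascent array of experiment 2. With the mean of all probe sets, 31 of the 33 stayed called. The second probe set of Mrpl47 read 5.7 and 5.69 in unstimulated nascent RNA and 5.5 and 5.87 at 45 min, so it overlapped.

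Total RNA at 45 min showed no such fall. By limma, 0 of the 77 genes were called in either direction (0.662% of all genes were called higher and 0.0201% lower), and at an unadjusted p below 0.05, 0 were higher and 1, Mrps10, was lower. The median difference over the 77 genes was 0.01 log2, within a range of -0.65 (Mrps14) to 0.47 (Mrpl52). For the 33 genes that fell in nascent RNA, the total RNA differences of the brightest probe sets ran from -0.28 to 0.15, with a median of -0.01. The second probe set of Mrpl51 was lower in total RNA at 45 min, at 8.17 and 8.52, then 7.35 and 8.12. The widest values by name were Mrps14 (-0.65 ± 0.32), Mrps10 (-0.49 ± 0.19) and Mrps12 (-0.32 ± 0.22) on the lower side. On the upper side they were Mrpl52 (0.47 ± 0.23), Mrpl54 (0.39 ± 0.30) and Mrpl20 (0.27 ± 0.35), all with an adjusted p of 1.0.

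**Figure D3:**
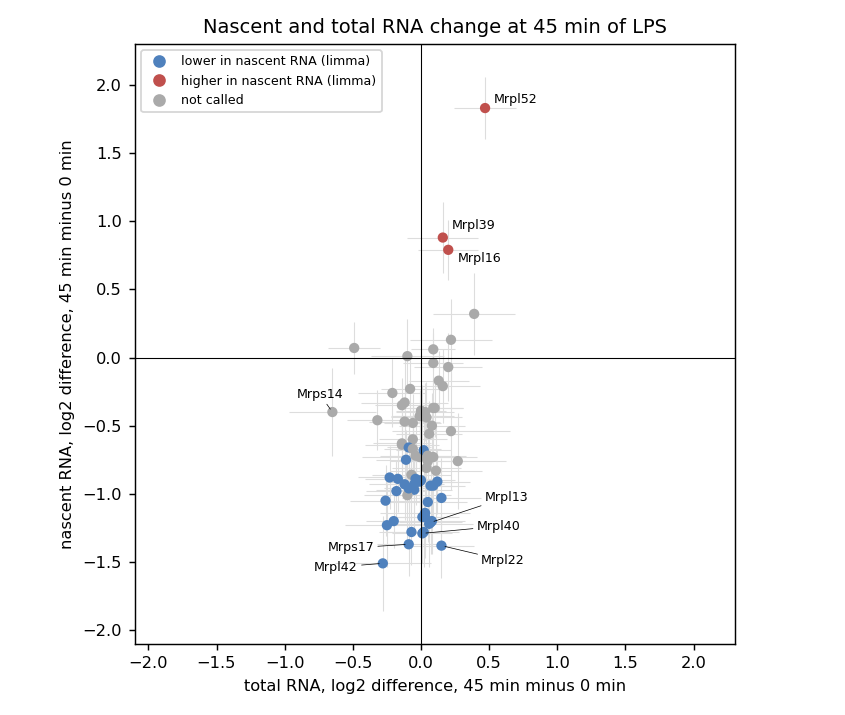
Difference between 45 and 0 min of LPS in nascent RNA (vertical) against total RNA (horizontal), in log2, for the 77 genes; bars are the limma SE and colours the nascent RNA call. The 33 genes called lower form a column near 0 on the horizontal axis, between -0.28 and 0.15, and Mrpl52 stands alone at the top.

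The direct test of the nascent against the total RNA response subtracted the total from the nascent array within each culture. The response in nascent RNA at 45 min lay below that in total RNA by a median of 0.72 log2 over the 77 genes, and was below it for 71 of them, yet only Mrpl22 was called lower (-1.53 ± 0.30, adjusted p = 0.0202) and only Mrpl52 higher (1.36 ± 0.27, adjusted p = 0.0204). Over all genes, 0.431% were called lower and 0.436% higher. Mrps17 (-1.28 ± 0.31, adjusted p = 0.0504) and Mrpl40 (-1.30 ± 0.31, adjusted p = 0.0507) stood just outside the threshold. With the experiment number as a replicate block, 30 of the 77 genes were called lower. The 0.431% of all genes is that of the main fit, and the share with the block is not given here. The count was 0 without either 45 min culture, 2 without the unstimulated culture of experiment 2, 28 without that of experiment 1 and 11 without either 270 min culture. Mrpl52 lost its call without either 45 min culture, and Mrpl22 lost its call there, without the unstimulated culture of experiment 2 and after quantile scaling. The direction of both genes was the same in every alternative in which they were tested. Leaving out 1 culture could not have changed it, because their nascent minus total differences at 0 and 45 min did not overlap.

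From 45 to 270 min, nascent RNA of 13 of the 77 genes (16.9%) was higher at 270 than at 45 min and that of 2 was lower, against 6.74% and 10.0% of all genes. The median difference was 0.37 log2 for the 77 genes and 0.01 for all genes, and both 270 min arrays lay above both 45 min arrays for 45 of the 77 (58.4%), against 26.9% of all genes. The 45 min array was the lowest of the 3 times in both experiments for 49 genes (63.6%), against 12.9%. Of the 33 genes that had fallen, 9 (11.7% of the 77, against 1.19% of all genes with both calls) were called higher again: Mrpl13, Mrpl19, Mrpl21, Mrpl22, Mrpl27, Mrpl37, Mrpl50, Mrps22 and Mrps30. Among all genes, 237 of the 1172 called lower at 45 min were called higher again. The comparisons between these times share the 45 min arrays, so a chance low reading there would enter both the fall and the rise. The count of 13 was 4 to 8 without any 1 of the 4 nascent arrays at 45 or 270 min, and 20 after quantile scaling.

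Mrpl13 and Mrpl30, both counterparts of bacterial proteins, rose the most. Nascent Mrpl13 went from 7.09 and 7.30 at 0 min to 6.10 and 5.87 at 45 min and 7.73 and 8.28 at 270 min, so the 3 times did not overlap. Its 45 min arrays lay under background, and the later rise was at least 2.61-fold against that level (2.02 ± 0.23, adjusted p = 2.1e-05). Nascent Mrpl30 read 7.76 and 7.96, then 7.05 and 7.72, then 8.91 and 9.11 (1.62 ± 0.26 from 45 to 270 min, adjusted p = 0.000515). Its early difference was not called (-0.47 ± 0.26, adjusted p = 0.309). Mrps30 (1.12 ± 0.31), Mrpl3 (1.12 ± 0.22) and Mrps18c (1.13 ± 0.32) also rose more than 2-fold, and Mrpl35, Mrpl27, Mrpl21 and Mrps22 rose by 0.89, 0.89, 0.80 and 0.78. Mrpl16 lost its early rise, falling by 1.12 ± 0.22 to 7.48 and 7.63 (adjusted p = 0.00253).

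At 270 min the share of the 77 genes called lower was close to that of all genes. Compared with unstimulated cells, nascent RNA of 13 of the 77 genes (16.9%) was lower and that of 3 higher. Over all genes, 14.2% were lower and 8.87% higher, and among genes with a mean above the background level 24.0% were lower. The median difference was -0.39 log2 (-0.18 in experiment 1 and -0.58 in experiment 2), against 0.12 for all genes. All genes include more dim ones, and the median of the brighter genes is not given here. The background level was 6.62 and 6.80 on the 270 min nascent arrays, against 6.41 and 6.19 on the unstimulated ones. After quantile scaling the calls were 2 lower and 3 higher and the median was -0.08, so the calls of most of these later falls depend on the scaling; the median of all genes moved from 0.12 to 0.03. Without the unstimulated nascent array of experiment 2 there were 2 lower, without either 270 min nascent array 3 or 4, and without the unstimulated array of experiment 1 there were 20.

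Of the 33 genes lower at 45 min, 10 were also called lower at 270 min and 23 were not. Among all genes, 629 of the 1172 lower at 45 min were also lower at 270 min and 543 were not. As shares of the 77, the counts are 13.0% and 29.9%, against 3.15% and 2.72% of all genes. Those shares include the higher rate of calls at 45 min. The 10 were Mrpl2, Mrpl23, Mrpl40, Mrpl42, Mrpl51, Mrpl55, Mrps17, Mrps25, Mrps31 and Mrps33. Both comparisons use the same unstimulated arrays. The 33 had a median difference of -0.52 at 270 min, and 32 of them were still below 0. Nascent Mrpl40 read 6.84 and 7.03 at 270 min (-0.85 ± 0.22, adjusted p = 0.0112), under its unstimulated 7.59 and 7.97. Nascent Mrps33 read 6.74 and 7.20, against 7.54 and 8.02 unstimulated (-0.81 ± 0.24, adjusted p = 0.0241). Falls of Mrpl51, Mrpl23 and Mrpl28 were uneven between experiments, at -0.32 and -1.35 for Mrpl51, -0.51 and -1.32 for Mrpl23, and -0.44 and -1.37 for Mrpl28.

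Mrps6, a counterpart of bacterial S6, followed another course. Its nascent level was 9.08 and 9.17 at 0 min, 8.87 and 9.03 at 45 min, and 7.59 and 7.99 at 270 min. It differed by -0.17 ± 0.22 at 45 min, which was not called, and was 2.52-fold lower at 270 min (-1.33 ± 0.22, adjusted p = 0.000488). In the RefSeq table Mrps6 overlaps Slc5a3, a myo-inositol transporter gene, whose nascent signal fell by 2.18 ± 0.25 at 270 min (adjusted p = 1.83e-05). Whether the probes of Mrps6 also read RNA of Slc5a3 was not tested.

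Higher nascent levels at 270 min than in unstimulated cells were called for Mrpl52 (1.24 ± 0.23, adjusted p = 0.0013), Mrpl30 (1.15 ± 0.26, adjusted p = 0.00573) and Mrpl13 (0.81 ± 0.23, adjusted p = 0.0189). Without the 270 min nascent array of experiment 2, Mrpl30 (1.05) and Mrpl13 (0.54) were not called. Mrpl52 read 9.44 and 8.92 at 270 min, still above its unstimulated 7.76 and 8.13, and its difference from 45 min was not called (-0.59 ± 0.23, adjusted p = 0.111).

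**Figure D4:**
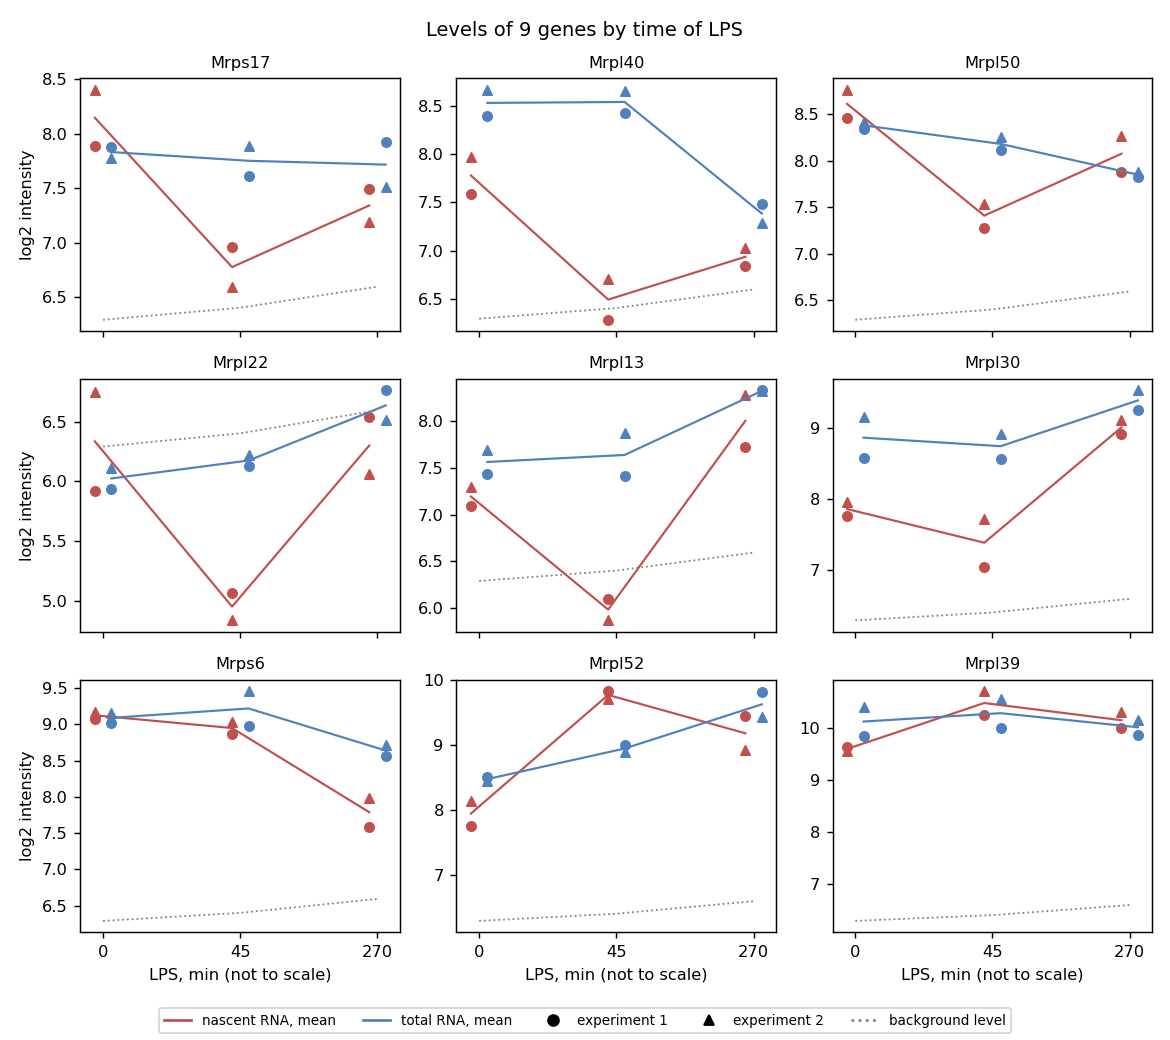
Log2 intensity of 9 genes in nascent (red) and total RNA (blue) at 0, 45 and 270 min of LPS, with each experiment as a point and the mean as a line; the dotted line is the mean background level of the 4 arrays of a time. Mrps17, Mrpl40, Mrpl50, Mrpl22 and Mrpl13 dip in nascent RNA at 45 min, Mrps6 falls only by 270 min, and Mrpl52 rises in both fractions.

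Total RNA at 270 min shows how far the pool itself had moved. It was lower than in unstimulated cells for 4 of the 77 genes (5.19%) and higher for 3 (3.90%), against 12% and 7.02% of all genes. Both 270 min arrays lay below both unstimulated arrays for 28 genes (36.4%), against 26.1% of all genes. The median difference was -0.18 log2, against 0.07 for all genes, and 0.00 after quantile scaling. With the experiment as a replicate block 8 were lower. Without the total RNA array at 270 min of experiment 1 there were 9 lower, and without the unstimulated total array of experiment 2 there were 2.

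The genes that fell in the pool were Mrpl40, Mrpl42, Mrps33 and Mrps35. Total Mrpl40 read 8.40 and 8.67 at 0 min, 8.43 and 8.66 at 45 min and 7.48 and 7.29 at 270 min, a late 2.22-fold fall with no overlap (-1.15 ± 0.22, adjusted p = 0.00164). Total Mrpl42 read 6.53 and 7.29, then 6.29 and 6.97, then 4.81 and 5.05, which is at least 1.35-fold lower than unstimulated against background (-1.98 ± 0.35, adjusted p = 0.00103). Total Mrps33 fell from 8.94 and 9.10 to 8.30 and 8.17 (-0.78 ± 0.24, adjusted p = 0.0332). Total Mrps35 fell from 7.64 and 7.87 to 6.74 and 6.87 (-0.95 ± 0.21, adjusted p = 0.00539), while its nascent differences of -0.67 and -0.47 at 45 and 270 min were not called. Mrpl40, Mrpl42 and Mrps33 were lower in both fractions at 270 min, which is 3.90% of the 77 genes against 9.54% of all genes.

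Those that rose in the pool were Mrpl52, Mrpl13 and Mrpl3. Total Mrpl52 read 8.51 and 8.44, then 9.0 and 8.89, then 9.82 and 9.43 (1.15 ± 0.23 at 270 min, adjusted p = 0.00271). Total Mrpl13 went from 7.44 and 7.69 to 8.33 and 8.32 (0.76 ± 0.23, adjusted p = 0.0307), and total Mrpl3 from 8.82 and 9.15 to 9.63 and 9.76 (0.71 ± 0.22, adjusted p = 0.0388). Mrpl13 and Mrpl3 lost their calls without any 1 of the 4 total RNA arrays at 0 or 270 min (0.63 to 0.88 and 0.54 to 0.87), and Mrpl52 did not. For Mrpl52 the nascent level peaked at 45 min and the total level was highest at 270 min.

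From 45 to 270 min, total RNA of 4 genes was lower and of 1 was higher (11.5% and 6.64% of all genes). Both 270 min arrays lay above both 45 min arrays for 10 genes (13.0%), against 29.5% of all genes. The 4 were the same as against unstimulated cells, Mrpl40, Mrpl42, Mrps33 and Mrps35, and the higher one was Mrps10 (0.65 ± 0.19, adjusted p = 0.0336), which had been lowest at 45 min. With the replicate block there were 10 lower and 5 higher, and after quantile scaling 4 and 4. Without the 270 min total array of experiment 1 there were 11 lower, without the 45 min total array of experiment 1 there were 7 and without that of experiment 2 there were 2. The nascent response at 270 min was not called different from the total response for any of the 77 genes by limma (0 lower and 0 higher, against 0.582% and 0.0752% of all genes). At an unadjusted p below 0.05, 5 were lower and 1 higher. With the replicate block 1 was lower. The widest values were Mrps18b (-0.96 ± 0.29, adjusted p = 0.241), Mrps6 (-0.88 ± 0.28, adjusted p = 0.281) and Mrpl46 (-0.85 ± 0.30, adjusted p = 0.412) on the lower side. On the upper side they were Mrps36 (0.68 ± 0.40), Mrpl39 (0.66 ± 0.28) and Mrpl30 (0.63 ± 0.30).

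In unstimulated cells, the ratio of nascent to total RNA sets the RNA labelled within 35 min beside the whole pool, relative to the other genes on the arrays. RNA input also differed between the fractions (100 and 200 ng), so fraction and input cannot be told apart here. Nascent signal was lower than total for 12 of the 77 genes and higher for 3, against 8.08% and 8.11% of all genes, with a median of -0.20 log2 against 0.01. The median was -0.35 in experiment 1 and 0.04 in experiment 2. With the replicate block 16 were lower and 5 higher, and without the unstimulated culture of experiment 2 there were 19 lower and 1 higher.

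Genes with a low ratio spanned both subunits. Besides the dim Mrpl42 (-2.01 ± 0.27, adjusted p = 0.000124), they were led by 3 small-subunit genes and Mrpl23. Mrps15 stood at -1.51 ± 0.25 (adjusted p = 0.000387), Mrps18c, a counterpart of bacterial S18, at -1.29 ± 0.25 (adjusted p = 0.00123), and Mrps33 at -1.24 ± 0.25 (adjusted p = 0.00156). Mrpl23 stood at -1.24 ± 0.28 but at -1.75 and -0.73 in the 2 experiments, and Mrpl30 at -1.01 ± 0.22 (adjusted p = 0.00261). A high ratio was called for Mrps18b (0.71 ± 0.21, adjusted p = 0.021), Mrpl57 (0.69 ± 0.20, adjusted p = 0.0229) and Mrps30 (0.59 ± 0.18, adjusted p = 0.0325). The first 2 of these were uneven, at 0.29 and 1.13 for Mrps18b and 0.31 and 1.08 for Mrpl57 in experiments 1 and 2. None of the 3 was called without the unstimulated culture of experiment 2 (0.29, 0.31 and 0.64) or in the unpaired contrast. Mrps18b and Mrps18c belong to the same S18 family, and stood on opposite sides of this comparison.

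Neighbouring parts of the same system, from lists of genes by known function, are given by counts and medians over the genes measured. In nascent RNA at 45 min, 7 of 14 mitochondrial translation factors were lower and 0 higher, with a median of -0.81 log2. They included Guf1, an elongation factor (-1.83 ± 0.28), Mtif3, an initiation factor (-1.73 ± 0.29), Mtrf1l, a release factor (-1.21 ± 0.19), and Taco1, an activator of Cox1 translation (-1.14 ± 0.20). Of 24 genes for ribosome assembly and rRNA modification, 10 were lower and 0 higher (median -0.63), among them Mettl17 (-1.72 ± 0.24), the rRNA chaperone Eral1 (-1.40 ± 0.30), the rRNA methyltransferase Mrm3 (-1.16 ± 0.21) and Rbfa (-1.09 ± 0.28). Of 20 genes for mitochondrial transcription and RNA processing, 6 were lower and 1 higher (median -0.71). Tfam, which packages mitochondrial DNA and starts its transcription, fell by 1.36 ± 0.28, and the helicase Twnk by 1.23 ± 0.26. Over all genes, 5.88% were called lower in this comparison.

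Of 21 genes for mitochondrial aminoacyl-tRNA synthetases and amidotransferase subunits, 4 were lower (median -0.25), led by Hars2 (-1.69 ± 0.21) and Yars2 (-1.23 ± 0.28). Of 4 other proteins of the mitochondrial ribosome, only Ptcd3, which sits at the mRNA entry, was lower (-0.99 ± 0.25). Of 75 nuclear genes for oxidative phosphorylation subunits, 20 were lower and 0 higher (median -0.60), led by the complex I genes Ndufs5 (-1.63 ± 0.29) and Ndufs3 (-1.63 ± 0.20). Of 61 cytosolic ribosomal protein genes, 5 were lower and 1 higher (median -0.20). Among 12 regulators of mitochondrial biogenesis, 0 were lower and 2 higher: Myc (2.18 ± 0.31) and Gabpb1, a subunit of the ETS factor GABP (0.78 ± 0.21). Over all genes, 5.88% were called lower and 3.05% higher, and the count of cytosolic ribosomal protein genes called lower is near that share. Differences between these lists and the 77 genes were not tested.

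At 270 min, nascent RNA of 8 of 14 translation factors, 8 of 24 assembly genes and 7 of 21 synthetase genes was lower than in unstimulated cells, with medians of -0.67, -0.55 and -0.39, where 14.2% of all genes were lower. In total RNA, 5, 3 and 8 of them were lower, where 12% of all genes were. The count of assembly genes in total RNA is near that share, and differences between lists were not tested. Nascent Mettl17 stood at -1.58 ± 0.24 from unstimulated cells. Tfam, by contrast, rose from 45 to 270 min by 1.21 ± 0.28 (adjusted p = 0.00746). In unstimulated cells the nascent to total ratio was low for 48 of 61 cytosolic ribosomal protein genes (median -1.32 log2) and for 44 of 75 oxidative phosphorylation genes (median -0.80), against 12 of the 77 (median -0.20). It was high for 6 of 24 assembly genes (median 0.49). Over all genes, the ratio was called low for 8.08% and high for 8.11%.

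**Figure D5:**
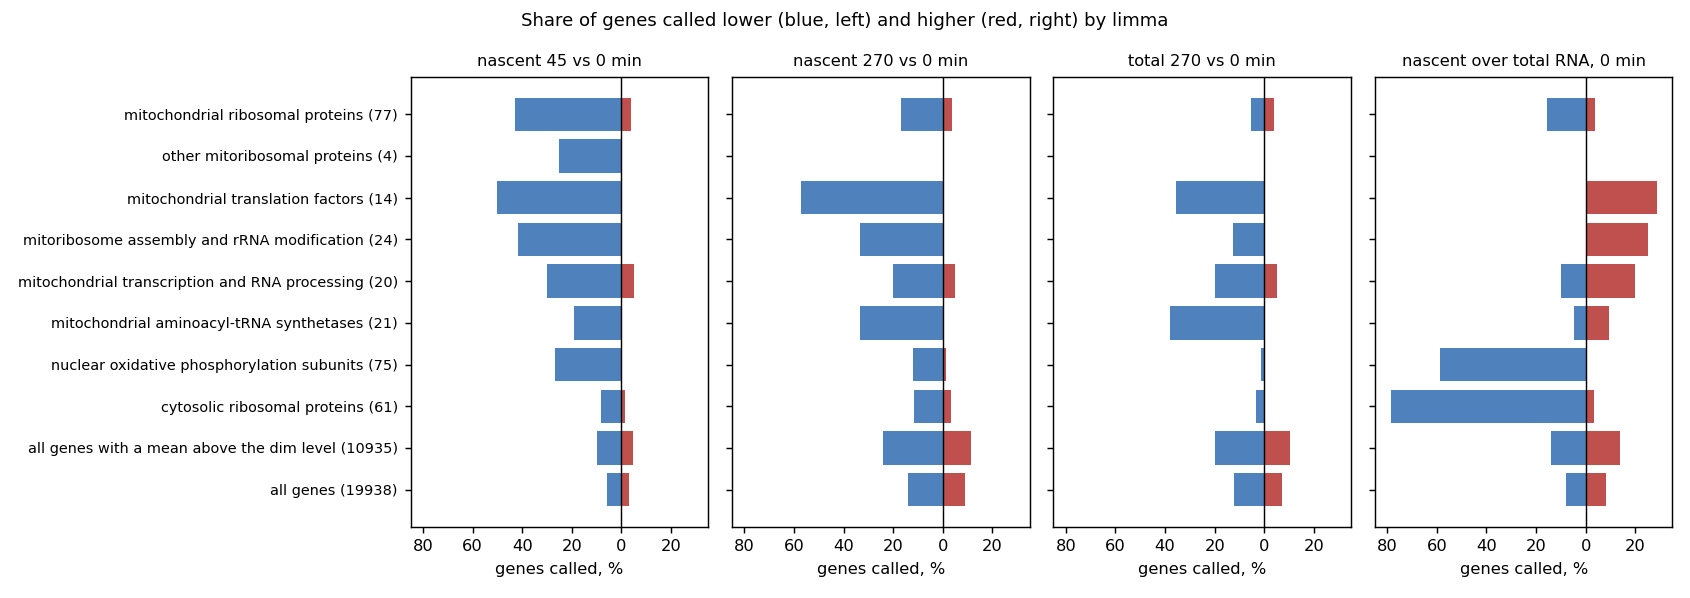
Share of the genes of each list called lower (blue, left of 0) and higher (red, right of 0) by limma in 4 comparisons, in percent of the genes measured (number in brackets); the bottom bars give all genes and those with a mean above the background level. At 45 min in nascent RNA 42.9% of the 77 genes were called lower against 5.88% of all genes, while in total RNA at 270 min the bars of the 77 genes are shorter than those of all genes.

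Promoter letters were set beside the early fall, as a description. Of the 32 promoters of genes called lower in nascent RNA at 45 min, 1 (3.12%) held the NRF1 letters, against 12 of the 42 promoters (28.6%) of the other genes. ETS letters stood in 31.2% and 35.7%, YY1 letters in 21.9% and 11.9%, and Sp1 letters in 62.5% and 45.2%. The NF-kB motif stood in 0 of 32 and 5 of 42. The median GC content was 57.8% and 59.0%. In all promoters the NRF1 share was 4.6%, and in those of genes above the background level 10.0%. The split rests on calls that lean on single arrays. Genes outside the called group are not genes without a fall: of those with NRF1 letters, only Mrpl39 and Mrpl32 had a difference above 0.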

How the data were processed

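Each of 12 RNA samples was hybridised to an Affymetrix Mouse Gene ST 1.0 array. The authors deposited linear intensities, for which the submitters' processing notes name RMA and Affymetrix Expression Console, without versions. They were turned into log2 here; the planned design had taken the files to hold log2 values already. Of 35557 probe sets, 21789 had 1 gene symbol, 1621 several and 12147 none in the platform annotation. Probe sets with 1 symbol gave 19938 genes, and for 999 genes with several probe sets the brightest on average was kept. The values are relative to the array as a whole, so a change in total RNA output per cell is not measured. Arrays have no read depth, and their number, 2 per group, limits the precision.

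Group means were fitted over all 12 arrays with limma 3.58.1 in R 4.3.3 (lmFit, then eBayes with an intensity trend; 6 residual degrees of freedom). Differences between the nascent and the total array of a culture were fitted in the same way (3 residual degrees of freedom). P-values were adjusted by the Benjamini-Hochberg method over 19938 genes, and a gene was called below 0.05. Errors are limma standard errors. A bound ("at least") sets the brighter group against the background level of the dim arrays. The steps were tested on simulated data. Descriptions and promoter searches used Python 3.11.15 with pandas 2.3.3 and numpy 2.4.6, and figures matplotlib 3.10.9.

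The labels call the experiments independent, and arrays of a culture or experiment share its number, so the number pairs the samples. The correlation of same-numbered deviations was 0.175 to 0.645, except for pairs with unstimulated nascent RNA, where it was -0.295 to 0.025. P-values rest on the spread between these 2 experiments, pooled over groups and drawn towards that of other genes of like intensity. The weight of the other genes was 7.4 degrees of freedom in the fit over 12 arrays and 16.8 in that of the paired differences. The fit over 12 arrays treats arrays of the same number as independent.

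The 77 genes and the other lists were chosen with earlier results of these data known. Named genes are, per comparison between times, up to 10 called genes with the largest change in each direction (6 for nascent against total RNA) and the same sign in both experiments, or the 3 widest where none was called, and up to 4 called genes per list. Mrpl46 and Mrps15 at 45 min, and genes named only as part of a count, were added after their values were seen. Alternatives were the replicate block, quantile scaling within each fraction, leaving out dim genes (mean at or under 6.43), no intensity trend, the mean of all probe sets, 1 fraction per fit, an unpaired contrast, and leaving out each array. RefSeq promoters were matched by symbol, and those of Mrpl4, Mrpl13, Mrpl15, Mrpl19, Mrpl38, Mrpl54, Mrps28, Mrps34 and Mrps35 were not used here.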

Additional observations from a re-analysis of the deposited data

Results flagged for a closer look

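For 2 genes, the nascent RNA response to 45 min of LPS differed from the total RNA response by the direct test of that difference (limma on paired nascent and total arrays, adjusted over all genes). For Mrpl22 the nascent response lay below the total one by -1.53 log2 (-1.03 and -2.03 in experiments 1 and 2; adjusted p = 0.0202), and this gene is near or under the background level on most arrays. For Mrpl52 it lay above, by 1.36 log2 (1.58 and 1.14; adjusted p = 0.0204), with all arrays above background.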

How the results depend on the processing

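No called difference among the 77 genes reversed in any alternative. Where the arrays of 2 times did not overlap, leaving out 1 array could not reverse it. Other named genes were not run through the alternatives. Counts of called genes moved more, and the shares of all genes called in these alternatives are not given here. Quantile scaling gave 18 lower in nascent RNA at 45 min, 2 lower at 270 min, 20 higher from 45 to 270 min, 4 higher in total RNA from 45 to 270 min and 0 lower in the nascent minus total response at 45 min. The replicate block gave 8 lower in total RNA at 270 min, 5 higher and 10 lower in total RNA from 45 to 270 min, 30 and 1 lower in the nascent minus total response at 45 and 270 min, and 5 higher in the nascent to total ratio; the block ended none of the calls among the 77 genes. Leaving out dim genes gave 4 higher and 7 lower in total RNA from 45 to 270 min, and 0 lower in the response at 45 min, since Mrpl22 was left out. Without an intensity trend the same 3 counts were 4, 7 and 5. A fit of 1 fraction gave 0 higher in total RNA from 45 to 270 min. The unpaired contrast gave 0 higher and 0 lower in the response at 45 min and 0 higher in the ratio. For counts that moved without a shown reason the cause was not tested.

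Leaving out 1 array or culture in turn gave these ranges. Nascent RNA at 45 min had 1 to 3 higher and 5 to 35 lower, at 270 min 1 to 3 higher and 2 to 20 lower, and from 45 to 270 min 4 to 14 higher and 2 to 2 lower. Total RNA at 270 min had 1 to 4 higher and 2 to 9 lower, and from 45 to 270 min 0 to 2 higher and 2 to 11 lower. The nascent minus total response had 0 to 2 higher and 0 to 28 lower at 45 min, and 0 to 2 higher and 0 to 4 lower at 270 min. The nascent to total ratio had 1 to 4 higher and 9 to 19 lower. A time left with 1 array is assumed to vary like the others. Signal near background limits Mrpl22, Mrpl42 and Mrpl47.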

Other observations

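The genes next to the 3 that rose early were looked up in the RefSeq order after their values were seen. Mrpl39 lies beside the microRNA gene Mir155, whose nascent signal rose by 5.98 ± 0.35 log2 at 45 min (adjusted p = 1.67e-07) and which stood at 7.17 ± 0.35 at 270 min. On its other side, Jam2 differed by 0.52 ± 0.19 at 45 min (adjusted p = 0.114) and rose by 0.80 ± 0.19 at 270 min. Mrpl52 lies beside Mmp14, a membrane metalloprotease gene, which differed by 1.44 ± 0.42 in nascent RNA at 45 min (adjusted p = 0.05) and rose by 2.94 ± 0.42 at 270 min and by 2.68 ± 0.42 in total RNA at 270 min. Slc7a7 on its other side differed by 0.20 ± 0.24 at 45 min. Mrpl16 lies beside Stx3, which differed by 0.47 ± 0.22 at 45 min and fell by 0.85 at 270 min (adjusted p = 0.0142), and beside Cblif, which differed by 0.31 ± 0.20. The part of these neighbours in the values of Mrpl39, Mrpl52 and Mrpl16 was not tested.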
